A study of Mus musculus with 4 samples.

Results

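The genes described here encode the NF-kB transcription factors and the inhibitors that limit them. They are 10 genes chosen by role from the 55450 genes listed: the subunits *Nfkb1*, *Nfkb2*, *Rela* and *Relb*, the IkB inhibitors *Nfkbia*, *Nfkbib* and *Nfkbie*, and the inducible feedback genes *Tnfaip3*, *Birc3* and *Traf1*. RNA-seq was performed on MLO-Y4, an osteocyte-like line of mouse cells immortalised with a viral antigen, in 2 unloaded and 2 loaded samples. All 4 samples were wild-type cells collected after 12 h. The loaded cells were stretched at 0.5 Hz and 20% strain on silicone-based plates coated with collagen I, whereas the unloaded cells stayed on ordinary culture plates in the same incubator. Loading and the plate therefore cannot be told apart. The labels do not say that the samples of a group were separate cultures, so the p-values measure only the spread between these samples, which may be technical.

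NF-kB proteins are held in the cytoplasm by IkB proteins. Signals from receptors of tumour necrosis factor, interleukins and bacterial products activate IkB kinases, which mark the IkB proteins for destruction and free NF-kB to enter the nucleus. NF-kB then switches on inflammatory genes together with genes for its own inhibitors, so the pathway limits itself. In bone, NF-kB is best known for its part in osteoclast formation and in inflammatory bone loss.

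The comparison asked whether mechanical loading changed the transcripts of this pathway. *Nfkbia*, the main inducible inhibitor, and *Tnfaip3*, a ubiquitin-editing enzyme that shuts the pathway down, had the most negative fold changes of the 9 tested genes, with loaded levels 0.70 and 0.74 times the unloaded levels. The level of *Rela*, which encodes the main activating subunit, overlapped between the groups. *Birc3* was listed at 0 in every library. At an adjusted p under 0.01, edgeR called 0 of the 9 tested genes, and DESeq2 called *Nfkbia* and *Tnfaip3* as lower. Over all genes, edgeR called only 0.0983% in either direction, and DESeq2 called 1.55% lower. Log2 fold changes and standard errors (SE) are those of the edgeR fit throughout, also beside a DESeq2 p-value.

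Total counts per library ranged from 28941994 to 32185693, and the TMM factors from 0.983 to 1.01. A floor of 3 counts corresponded to 0.0930 to 0.103 CPM (counts scaled to the normalised library size), and it covers counting error only. Of the genes listed, 16269 passed the filter on low counts and were tested by edgeR, with a median log2 fold change of -0.01. Among the markers of the cell type, *Pdpn*, an early osteocyte marker, was at 143 and 151 CPM in unloaded and 215 and 228 CPM in loaded libraries. The late osteocyte marker *Sost* had 4 counts in 1 loaded library and 0 in the others, and *Mepe* was listed at 0. *Dmp1*, *Fgf23*, *Bglap* and *Alpl* had at most 14 counts in any library. In contrast, *Phex* was at 43.7 and 43.8 CPM in unloaded and 47.5 and 55.8 CPM in loaded libraries. *Gja1* was at 485 to 584 CPM and *Col1a1* at 931 to 1032 CPM over the 4 libraries. Of the macrophage and endothelial markers, *Ptprc* and *Adgre1* had at most 4 counts in any library, and *Lyz2*, *Pecam1*, *Cdh5* and *Tek* at most 61. *Cd14* was at 52.5 and 54.7 CPM in unloaded and 41.6 and 44.0 CPM in loaded libraries. *Cd68* was at 5.58 and 4.65 CPM in unloaded and 3.07 and 2.82 CPM in loaded libraries. The summed level of the 9 markers was 1606 to 1647 CPM, nearly all of it *Csf1r*. *Csf1r*, the receptor for a macrophage growth factor, stood at 1558 to 1584 CPM in all 4 libraries. The 10 interferon-stimulated markers summed to 509.6 and 484 CPM in unloaded libraries and to 162 and 167 CPM in loaded libraries. DESeq2 called 9 of them lower and edgeR 5. Of all genes with an adjusted p, DESeq2 called 1.55% lower, and of all tested genes edgeR called 0.0983% in either direction. The part of these interferon-stimulated markers in the results on NF-kB genes was not tested.

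**Figure D1:**
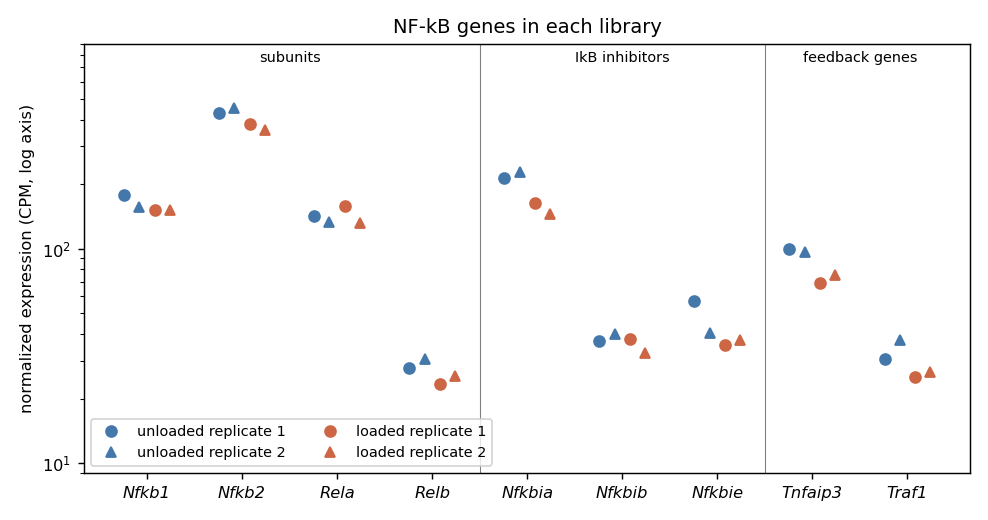
Normalized expression (CPM, log axis) of the 9 genes with counts, in each of the 4 libraries, where circles are replicate 1 and triangles replicate 2. The loaded libraries sit under both unloaded libraries for 7 genes and overlap them for *Rela* and *Nfkbib*. Of all tested genes, 24.5% have both loaded libraries under both unloaded libraries.

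Among the subunits, *Rela* encodes p65, the partner that carries the activation domain of the classical dimer. It lies at chr19:5637483-5648130 on the plus strand (ENSMUSG00000024927.8, GRCm38), and its level was 141 and 133 CPM in the unloaded libraries and 158 and 131 CPM in the loaded libraries. The loaded libraries lay on either side of the unloaded libraries, and the log2 fold change was 0.08 (SE 0.104, edgeR adjusted p = 0.801). Without loaded replicate 1 it was -0.06.

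*Nfkb1* encodes the p105 precursor, which is processed to p50, the usual partner of p65. The gene (ENSMUSG00000028163.17, chr3:135584655-135691547, minus strand) stood at 178 and 157 CPM in unloaded and at 152 and 151 CPM in loaded libraries, with a log2 fold change of -0.14 (SE 0.0815, edgeR adjusted p = 0.491). The loaded libraries were close to each other and under both unloaded libraries, but the gap to the lower unloaded library was smaller than that between the unloaded libraries. Leaving out unloaded replicate 1 left -0.04, and no test called the gene.

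*Nfkb2* encodes the p100 precursor, which acts as an inhibitor until it is processed to p52 in the alternative pathway, and its own transcription is raised by NF-kB. Counts of the gene (ENSMUSG00000025225.15, chr19:46304320-46312385, plus strand) were 12447 and 13698 in unloaded and 12282 and 10709 in loaded libraries, and the normalised levels were 429 and 452 against 381 and 359 CPM. The groups did not overlap. The log2 fold change was -0.25 (SE 0.0631), with an adjusted p of 0.16 by edgeR and 0.0572 by DESeq2. *Nfkb2* shares 299 exon bases with *Psd* and 531 with a noncoding gene on the other strand, and because the strand setting of the counting is not given in the sources used here, the reads of these genes cannot be told apart there.

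*Relb* encodes the partner of p52. The gene (ENSMUSG00000002983.17, chr7:19606217-19629438, minus strand) was measured at 27.7 and 30.7 CPM in unloaded and 23.5 and 25.4 CPM in loaded libraries. The groups did not overlap, and the log2 fold change was -0.26 (SE 0.111, edgeR adjusted p = 0.367). Over the 4 subunits the median log2 fold change was -0.20, with 3 negative values, and neither test called any of them. At an unadjusted p under 0.05 in edgeR, 1 subunit, *Nfkb2*, was lower, where 7.46% of all tested genes were lower.

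The remaining proteins of the NF-kB and IkB families gave a similar picture of small differences. *Rel* encodes c-Rel, which is best known from lymphoid cells, and was at 34.8 and 34.9 CPM in unloaded and 29.9 and 31.7 CPM in loaded libraries, with a log2 fold change of -0.18 (SE 0.0964, edgeR adjusted p = 0.467). *Bcl3*, a nuclear IkB protein that binds p50 and p52, stood at 12.8 and 12.6 against 9.48 and 11.1 CPM, with a log2 fold change of -0.30 (SE 0.157, edgeR adjusted p = 0.450). *Nfkbiz*, a nuclear IkB protein induced in inflammation, was higher in both loaded libraries (90.3 and 87.5 CPM) than in the unloaded libraries (84.8 and 77.2 CPM), with a log2 fold change of 0.13 (SE 0.0884, edgeR adjusted p = 0.555). *Nfkbid* was listed at 0 in all libraries, and DESeq2 called none of the other 3 genes either.

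**Figure D2:**
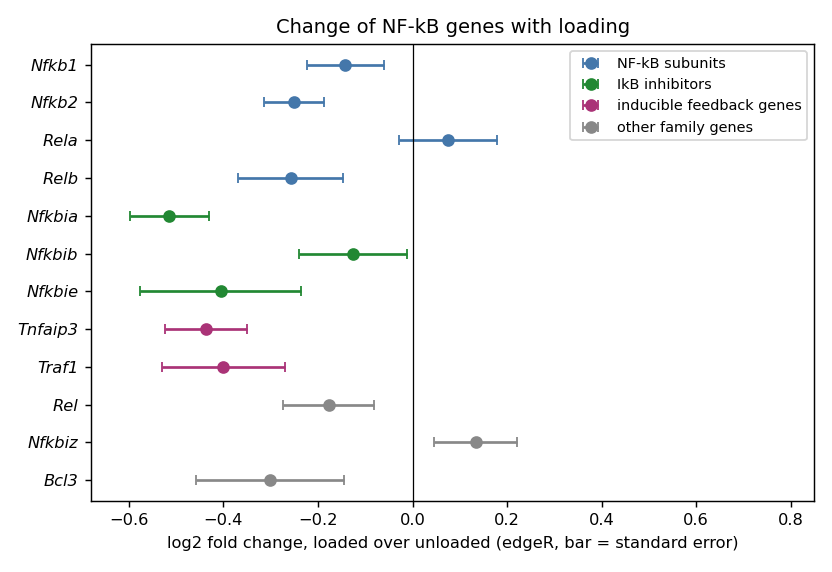
Log2 fold change of loaded over unloaded cells with its standard error, from the edgeR fit, for the 9 tested genes and for *Rel*, *Nfkbiz* and *Bcl3*. The points run from -0.51 for *Nfkbia* to 0.13 for *Nfkbiz*, and among the subunits only *Rela* has a positive value.

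IkB-alpha, the product of *Nfkbia* (ENSMUSG00000021025.8, GRCm38 chr12:55489410-55492647, minus strand), binds classical dimers, is destroyed on activation and is then remade by NF-kB itself. Its transcript had 6185 and 6868 counts in unloaded and 5258 and 4314 counts in loaded libraries, or 213 and 227 against 163 and 145 CPM. The groups did not overlap, and the mean went from 219.8 ± 9.66 to 154 ± 12.9 CPM (SD, n = 2). The log2 fold change was -0.51 (SE 0.0829), with an adjusted p of 0.0643 by edgeR and 2.83e-05 by DESeq2. The edgeR fits that left out a library gave values from -0.60 to -0.43. DESeq2 kept the gene under 0.01 only without loaded replicate 1 (adjusted p = 0.000359). Without unloaded replicate 1, unloaded replicate 2 and loaded replicate 2 the DESeq2 adjusted p was 0.0128, 0.0651 and 0.0324.

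*Nfkbie* encodes IkB-epsilon, a slower-acting inhibitor that is also induced by NF-kB. The gene (ENSMUSG00000023947.8, chr17:45555703-45563169, plus strand) was at 56.7 and 40.3 CPM in unloaded and 35.6 and 37.6 CPM in loaded libraries. The unloaded libraries differed from each other by more than the lower of them differed from either loaded library. The log2 fold change of -0.41 (SE 0.170, edgeR adjusted p = 0.356) was -0.13 without unloaded replicate 1 and -0.63 without unloaded replicate 2, so its size rests on these libraries.

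*Nfkbib* encodes IkB-beta, which is regulated mainly by its breakdown and much less by transcription. The gene (ENSMUSG00000030595.15, chr7:28758251-28767512, minus strand) stood at 37.2 and 40.0 CPM in unloaded and 37.9 and 32.8 CPM in loaded libraries, and the groups overlapped. The log2 fold change was -0.13 (SE 0.114, edgeR adjusted p = 0.674). Its exons share 42 bases with *Sirt2* and 314 with *Ccer2*, which was listed at 0, and these reads carry the same uncertainty as those of *Nfkb2*. The 3 IkB inhibitors together had a median log2 fold change of -0.41.

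Of the feedback genes, *Tnfaip3* (ENSMUSG00000019850.11, GRCm38 chr10:19000910-19015657, minus strand) removes activating ubiquitin chains from signalling complexes of the pathway. It had 2878 and 2936 counts in unloaded and 2233 and 2251 counts in loaded libraries, or 99.1 and 96.9 against 69.2 and 75.5 CPM. The replicates of each group were close together and the groups did not overlap. The mean went from 98.0 ± 1.57 to 72.4 ± 4.47 CPM (SD, n = 2). The log2 fold change was -0.44 (SE 0.0869), with an adjusted p of 0.108 by edgeR and 0.00654 by DESeq2. The DESeq2 call did not outlast the removal of any single library, with an adjusted p of 0.439 and 0.259 without unloaded replicates 1 and 2 and of 0.376 and 0.0627 without loaded replicates 1 and 2.

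*Traf1* encodes an adaptor of tumour necrosis factor receptors that is strongly induced by NF-kB. The gene (ENSMUSG00000026875.14, chr2:34941750-34961772, minus strand) was at 30.5 and 37.6 CPM in unloaded and 25.1 and 26.6 CPM in loaded libraries. The groups did not overlap, and the log2 fold change was -0.40 (SE 0.130, adjusted p = 0.252 by edgeR and 0.244 by DESeq2). Leaving out unloaded replicate 2 gave -0.24.

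Read over all members, 8 of the 9 tested genes had a negative log2 fold change and 1 a positive one, with a median of -0.26, where 51.5% of all tested genes were negative and their median was -0.01. Both loaded libraries lay under both unloaded libraries for 7 of the 9, where 24.5% of all tested genes showed this. At an unadjusted p under 0.05, edgeR found 4 lower (*Nfkb2*, *Nfkbia*, *Tnfaip3* and *Traf1*) and 0 higher, where 7.46% of all tested genes were lower and 14.3% differed in either direction. At the adjusted threshold edgeR and limma-voom called 0 of 9, where edgeR called 0.0983% of all tested genes. DESeq2 called 2 of 9, both lower, where 1.55% of genes with an adjusted p were called lower and 2.91% were called in either direction.

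The promoters of the genes were searched for the kappa B consensus, the 10-base element that NF-kB dimers bind, on both strands of the 250 bases before each start site (RefSeq sequences, GRCm38.p6). Windows were found for 8 of the 10 genes, and *Nfkb1* and *Relb* had none in the table. A match was present for 4 of the 8, *Nfkb2*, *Nfkbia*, *Nfkbie* and *Tnfaip3*, while 8.23% of all 27025 genes with a window held one. The members include genes chosen as inducible by NF-kB, so this share was partly set by the choice. The core of the interferon-stimulated response element was in 0 of the 8, against 3.46% of all genes. A match describes letters and does not show that a protein was bound. Upstream sequences are shown for *Nfkbia* (chr12:55492648-55492897, minus strand), *Nfkbie* (chr17:45555450-45555699, plus strand), *Tnfaip3* (chr10:19015411-19015547, minus strand) and *Traf1* (chr2:34961773-34962022, minus strand). They were chosen because the first 3 carry matches, in capitals, at different distances from the start site, and *Traf1* carries none. For *Tnfaip3*, only the 137 bases next to the start site that hold no annotated exon are shown. The window searched was chr10:19015411-19015660, and its start site lies inside the gene as bounded in GENCODE.
Nfkbia: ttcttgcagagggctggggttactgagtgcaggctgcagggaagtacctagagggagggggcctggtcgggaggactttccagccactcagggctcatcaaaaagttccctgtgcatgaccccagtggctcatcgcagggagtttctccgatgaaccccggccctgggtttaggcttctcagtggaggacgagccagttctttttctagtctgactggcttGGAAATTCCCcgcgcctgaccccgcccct
Nfkbie: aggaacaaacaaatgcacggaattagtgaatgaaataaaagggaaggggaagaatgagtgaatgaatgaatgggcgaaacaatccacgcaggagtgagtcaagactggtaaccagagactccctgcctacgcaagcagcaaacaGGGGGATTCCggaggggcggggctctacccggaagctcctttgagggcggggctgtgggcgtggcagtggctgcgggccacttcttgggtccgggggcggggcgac
Tnfaip3: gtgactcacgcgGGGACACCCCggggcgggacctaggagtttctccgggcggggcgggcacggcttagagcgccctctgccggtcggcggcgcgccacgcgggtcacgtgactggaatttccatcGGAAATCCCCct
Traf1: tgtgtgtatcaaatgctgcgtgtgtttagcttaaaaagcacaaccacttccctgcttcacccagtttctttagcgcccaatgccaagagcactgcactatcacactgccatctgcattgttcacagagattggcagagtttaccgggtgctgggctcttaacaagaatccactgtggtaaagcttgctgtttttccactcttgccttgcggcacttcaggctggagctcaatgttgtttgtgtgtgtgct

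The match in *Nfkbia* began 29 bases before the start site, and that in *Nfkbie* began 106 bases before it. *Tnfaip3* had a match at 125 bases and another at 12 bases. *Nfkb2* has several RefSeq starts, and before the one furthest upstream of these, which lies inside the gene as bounded in GENCODE, the sites GGGAATTCCC and GGGGCTTTCC began at 39 and 11 bases. Of the genes with a match, DESeq2 called *Nfkbia* and *Tnfaip3* lower and did not call *Nfkb2* or *Nfkbie*. *Traf1* had no match in this window. Whether the matches have a part in the change with loading was not tested.

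Levels of different genes were compared as CPM per kb of exon. In unloaded cells *Nfkbia* was the most abundant at 137 ± 6.00, followed by *Nfkb2* at 96.1 ± 3.61 and *Rela* at 44.7 ± 1.86 CPM per kb (SD, n = 2). These 3 levels were separated by more than their spread. *Nfkbib* (17.8 ± 0.904), *Nfkbie* (15.9 ± 3.82), *Nfkb1* (13.9 ± 1.21) and *Tnfaip3* (13.6 ± 0.217 CPM per kb) followed, and neighbours among them did not differ beyond their spread. *Relb* at 7.52 ± 0.541 and *Traf1* at 3.86 ± 0.567 CPM per kb were the lowest genes with counts. With the length of the longest transcript in place of all exons, *Nfkb1* moved up to 40.3 CPM per kb, and *Traf1* at 9.92 passed *Relb* at 8.92.

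In loaded cells *Nfkbia* was at 95.6 ± 8.0 and *Nfkb2* at 80.7 ± 3.29 CPM per kb, while *Rela* was at 47.1 ± 6.18 CPM per kb (SD, n = 2). The level of *Nfkbia* was thus closer to that of *Rela* than in unloaded cells. Within each library, the level of *Nfkbia* per kb over that of *Rela* was 2.87 and 3.24 in unloaded and 1.97 and 2.1 in loaded libraries. The groups did not overlap, with means of 3.06 ± 0.261 and 2.04 ± 0.0974 (SD, n = 2), but an exact permutation test of 2 against 2 libraries cannot reach 0.05 and none was run.

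The ratio of *Nfkb2* to *Rela* was likewise 2.03 and 2.27 in unloaded against 1.61 and 1.83 in loaded libraries. For *Tnfaip3* over *Rela* it was 0.298 and 0.309 against 0.186 and 0.245. The ratios of *Nfkb1*, *Relb*, *Rel*, *Nfkbib*, *Nfkbie* and *Traf1* to *Rela* were also lower in both loaded libraries. For *Nfkb1* the values were 0.320 and 0.300 against 0.245 and 0.294, and for *Nfkbib* 0.373 and 0.425 against 0.340 and 0.354. A lower ratio to *Rela* was therefore not particular to the inhibitors. In each of these ratios loaded replicate 1, which had the highest *Rela* level, gave the lowest value. Among the inhibitors themselves, *Nfkbia* over *Nfkbib* was 7.72 and 7.64 in unloaded and 5.79 and 5.95 in loaded libraries, whereas *Nfkbia* over *Nfkbie* overlapped between the groups (7.10 and 10.6 against 8.66 and 7.27). The ratio of *Nfkb2* to *Nfkb1*, the precursors of p52 and p50, also overlapped, at 6.34 and 7.57 against 6.59 and 6.25.

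**Figure D3:**
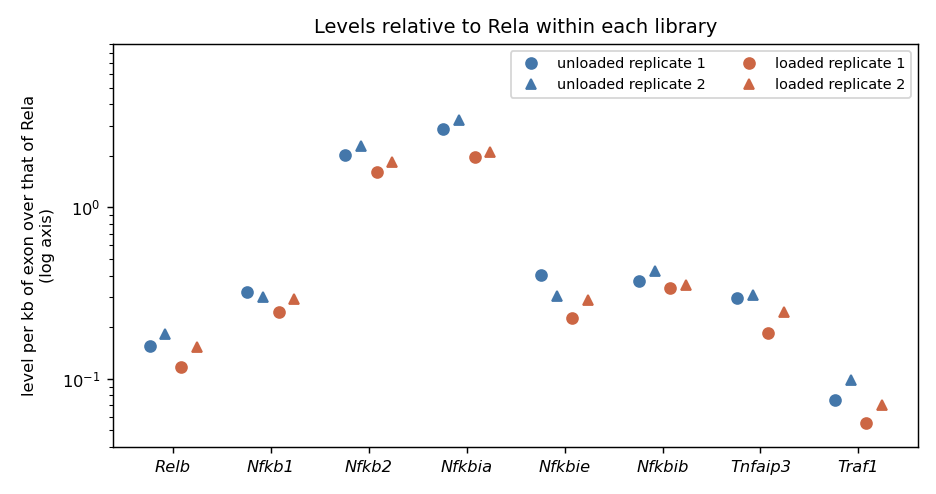
Level per kb of exon of 8 genes over that of *Rela* in the same library (log axis), with circles for replicate 1 and triangles for replicate 2. *Nfkbia* and *Nfkb2* lie above 1 in every library, and the *Nfkbia* ratio goes from 2.87 and 3.24 in unloaded to 1.97 and 2.1 in loaded libraries. The ratios of all 8 genes are lower in both loaded libraries than in the unloaded libraries.

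*Birc3* (ENSMUSG00000032000.17, GRCm38 chr9:7848699-7873186, minus strand) encodes an inhibitor-of-apoptosis protein that ubiquitinates components of the receptor complex and is a well-known NF-kB target. It was listed at 0 in all 4 libraries, so no fold change was computed. Its neighbour *Birc2*, which encodes the closest relative of the protein, and *Tmem123*, both broadly expressed genes, were also listed at 0. With *Mmp7* and *Mmp20* they formed a run of 5 consecutive protein-coding genes at 0. On one side of the run, *Mmp27* had 15 and 9 counts in unloaded and 10 and 0 counts in loaded libraries and *Mmp8* was listed at 0, and beyond them *Mmp10* had 777 and 934 counts in unloaded and 582 and 527 counts in loaded libraries, and on the other side *Yap1* had 254 to 294 counts. A processed pseudogene inside the interval had 45 to 85 counts. Of all 21951 protein-coding genes, 29.0% were at 0 in every library. Whether the zeros at *Birc3* reflect the cells or the processing of the files was not tested.

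**Figure D4:**
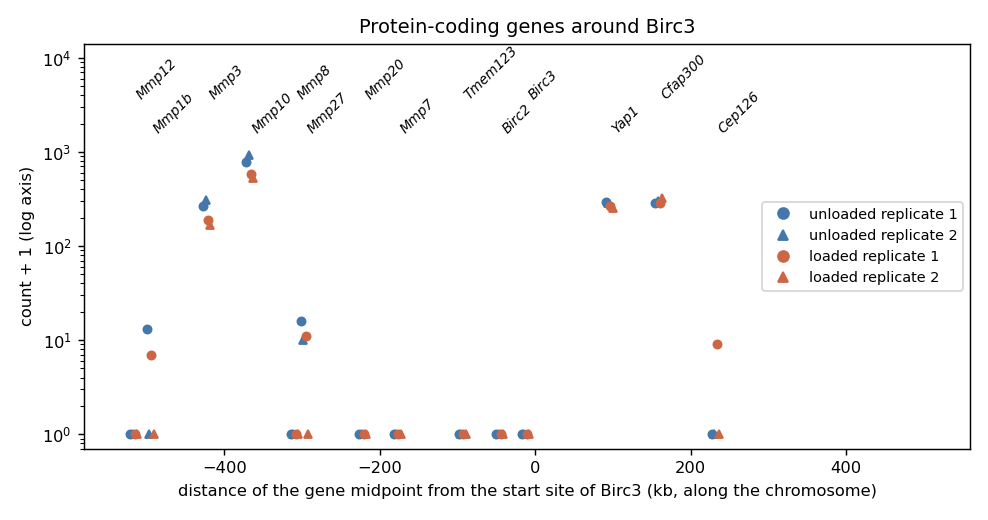
Counts plus 1 (log axis) of the 14 protein-coding genes around *Birc3* in the 4 libraries, by distance from its start site in kb. The 5 genes from *Mmp20* to *Birc3* sit at 0 counts in every library. *Mmp27* next to them has 0 to 15 counts and *Mmp8* none, while *Mmp10* beyond these and *Yap1* on the other side have counts throughout.

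Upstream of the NF-kB proteins, the list of kinases and adaptors held 29 genes, of which 28 were tested. Their median log2 fold change was -0.03, with 16 negative and 12 positive, edgeR called 0 (5 lower and 1 higher at an unadjusted p under 0.05) and DESeq2 called 1 lower and 1 higher. Over all genes these shares were 0.0983% for edgeR and 2.91% for DESeq2 in either direction, and 14.3% at the unadjusted p, and they apply to the next lists too. The one lower was *Ikbke*, a non-classical IkB kinase that also serves interferon induction, at 41.3 and 37.8 CPM in unloaded and 19.4 and 19.6 CPM in loaded libraries (log2 fold change -1.02, SE 0.103, adjusted p = 0.0207 by edgeR and 2.22e-07 by DESeq2). The one higher was *Map3k7*, which encodes TAK1, the kinase that activates the IkB kinase complex. It was at 104 and 79.9 CPM in unloaded and 189 and 183 CPM in loaded libraries (log2 fold change 1.02, SE 0.129, adjusted p = 0.0370 by edgeR and 1.42e-13 by DESeq2). DESeq2 called *Map3k7* without any single library, and lost *Ikbke* without unloaded replicate 1 (adjusted p = 0.0198).

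The kinases of both branches gave smaller differences. *Map3k14*, which encodes the kinase NIK that starts p100 processing, was at 53.4 and 56.3 CPM in unloaded and 40.1 and 44.2 CPM in loaded libraries, a log2 fold change of -0.38 (SE 0.101, adjusted p = 0.178 by edgeR and 0.109 by DESeq2). *Chuk*, the alpha kinase, had a log2 fold change of 0.10 and *Ikbkb*, the beta kinase, of -0.08 (edgeR adjusted p = 0.632 and 0.786). *Ikbkg*, the regulatory subunit, had -0.04 (edgeR adjusted p = 0.950), and its direction changed when unloaded replicate 1 or loaded replicate 2 was left out, as did that of *Ikbkb* without unloaded replicate 1. *Ikbkg* shares 418 exon bases with *G6pdx* on the other strand, which had 4938 and 5083 counts in unloaded and 6232 and 6136 counts in loaded libraries. Its reads there carry the same uncertainty as those of *Nfkb2*.

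Of 26 ligands and receptors of the pathway, 19 were tested, and neither tool called any. Their median log2 fold change was -0.10, and at an unadjusted p under 0.05 edgeR found 2 lower and 1 higher. *Tnfrsf1b*, the second receptor for tumour necrosis factor, was at 118 and 114 CPM in unloaded and 83.5 and 93.2 CPM in loaded libraries (log2 fold change -0.40, SE 0.0865, adjusted p = 0.130 by edgeR and 0.0141 by DESeq2). *Tnfsf13b*, which encodes the B-cell factor BAFF, was at 9.71 and 8.32 against 4.43 and 5.10 CPM (log2 fold change -0.92, adjusted p = 0.129 by edgeR and 0.0852 by DESeq2). These had the smallest p-values of the list.

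Among 18 further negative regulators, 17 were tested with a median of 0.01, and again neither tool called any, while edgeR found 1 lower and 3 higher at an unadjusted p under 0.05. *Tnip1*, whose product binds that of *Tnfaip3*, stood at 85.5 and 88.6 CPM in unloaded and 68.3 and 70.3 CPM in loaded libraries (log2 fold change -0.33, SE 0.0835, edgeR adjusted p = 0.163). *Rnf11*, which encodes another partner of the same enzyme, was at 204 and 183 against 226 and 243 CPM (log2 fold change 0.28, SE 0.0810, edgeR adjusted p = 0.199). These had the smallest p-values of this list, and the other tested regulators were not called.

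Downstream, 30 of 34 known NF-kB target genes were tested, and their median log2 fold change was -0.28, with 21 negative and 9 positive. edgeR called 3 lower and 0 higher, where it called 0.0983% of all tested genes in either direction. DESeq2 called 9 lower and 2 higher, where it called 1.55% of all genes lower and 2.91% in either direction. At an unadjusted p under 0.05, edgeR found 12 lower and 4 higher, where 7.46% of all tested genes were lower and 14.3% differed in either direction. The 3 called by both were *C3*, the central complement component, *Vcam1*, an adhesion molecule for leukocytes, and *Cxcl10*, a chemokine that interferons also induce. *C3* fell from 417 and 419 CPM to 199.5 and 197 CPM (log2 fold change -1.08, SE 0.0572, adjusted p = 0.00785 by edgeR). *Vcam1* fell from 269 and 274 CPM to 120.3 and 135 CPM (log2 fold change -1.09, SE 0.0780, adjusted p = 0.00813 by edgeR). *Cxcl10* fell from 50.9 and 52.4 CPM to 17.3 and 18.5 CPM (log2 fold change -1.53, SE 0.0993, adjusted p = 0.00813 by edgeR). Each of these changes was larger in size than that of *Nfkbia*. The edgeR calls were lost without a filter on low counts and when loaded replicate 1 (adjusted p from 0.0202 to 0.0342) or loaded replicate 2 (from 0.0358 to 0.0376) was left out.

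By DESeq2 alone, the matrix proteases *Mmp9* (-1.31) and *Mmp13* (-0.70), the chemokine *Ccl5* (-0.83), the growth factor *Csf2* (-1.41), the nitric oxide synthase *Nos2* (-1.44) and the transcription factor *Irf1* (-0.56) were lower, where the values in parentheses are edgeR log2 fold changes and the DESeq2 adjusted p ran from 1.18e-08 for *Mmp9* to 0.00891 for *Irf1*. Some of these genes, such as *Irf1*, *Nos2* and *Ccl5*, also respond to interferons. In the opposite direction DESeq2 called *Ier3*, an early-response survival gene, at 163 and 164 CPM in unloaded and 267 and 240.3 CPM in loaded libraries (log2 fold change 0.63, DESeq2 adjusted p = 1.83e-09). It also called *Ptgs2*, the inducible cyclooxygenase and a known loading-responsive gene, with a log2 fold change of 0.42 (DESeq2 adjusted p = 1.89e-06). The target genes called by DESeq2 were thus found on both sides, with 9 lower and 2 higher. When a library was left out of the DESeq2 fit, *Csf2*, *Mmp13* and *Nos2* lost their call in every case, *Irf1* in all but that without unloaded replicate 1, and *Ccl5* and *Ptgs2* without unloaded replicate 2, while *Mmp9* and *Ier3* stayed under 0.01 throughout.

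**Figure D5:**
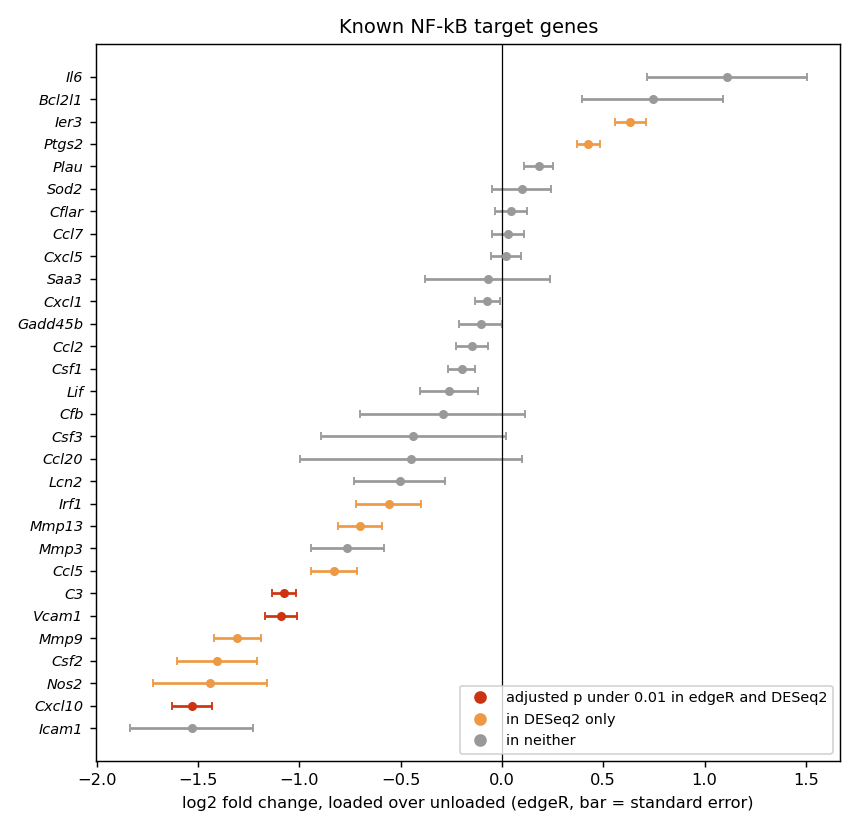
Log2 fold change of loaded over unloaded cells with its standard error, from the edgeR fit, for the tested NF-kB target genes. *Cxcl10*, *Vcam1* and *C3* lie at -1.53, -1.09 and -1.08, while *Ier3* and *Ptgs2* lie at 0.63 and 0.42.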

How the data were processed

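RNA from MLO-Y4 cells, 2 unloaded and 2 loaded samples grouped by their labels, was depleted of ribosomal RNA and sequenced. The authors mapped reads to mm10 with HISAT2 2.1.0 and assembled and quantified transcripts with StringTie 1.3.5 (versions from the submitters' processing notes). The deposited table holds raw gene counts, which are whole numbers without normalization. The strand setting is not given in the sources used here.

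Counts were filtered with filterByExpr (count minimum 10), normalized by TMM and tested over all 16269 kept genes with the quasi-likelihood test of edgeR 4.0.16 in R 4.3.3, with Benjamini-Hochberg adjustment and the threshold of 0.01 used by the study. The study applied this threshold with DESeq2 1.32.0, not with edgeR. The alternatives were DESeq2 1.42.0 (Wald test), limma-voom (limma 3.58.1), RLE and upper-quartile factors, other filters, a replicate block, a threshold of 0.05 and leaving out each library. DESeq2 with a library left out, with the block or at 0.05 was added after the data were seen. A fit without 1 library assumes that the lone library of its group varies like the others. Positions and exon lengths came from GENCODE M21 (GRCm38), and upstream sequences from RefSeq. The procedure was tested on simulated data.

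The genes and lists were chosen with earlier results of these data known. Named genes are the 10 members, the other NF-kB and IkB genes, the kinases of both branches, and from each further list of the pathway the genes called by edgeR or DESeq2, or otherwise those with the 2 smallest edgeR p-values. Marker genes and the neighbours of *Birc3* were named besides, the neighbours after their values were seen.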

Additional observations from a re-analysis of the deposited data

How the results depend on the processing

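Among the fold changes of the members, 2 changed direction under an alternative, both for *Rela* without loaded replicate 1 (-0.063 with edgeR and -0.055 with DESeq2), and the edgeR fits without a library ranged from -0.063 to 0.20. The number of members called was 0 with edgeR under RLE or upper-quartile factors, other filters, limma-voom, a threshold of 0.05 and every library left out. It was 2 with DESeq2, 2 with DESeq2 at 0.05, and 0 to 1 with DESeq2 when a library was left out, the 1 being *Nfkbia*. The replicate numbers did not pair the samples (correlation of same-numbered deviations -0.057). With the replicate block edgeR called 0 members and DESeq2 called 1, *Nfkbia* (adjusted p = 0.00897).

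Of the other pathway lists, edgeR called 3 genes. DESeq2 called 13, the replicate block left 0, no filter on low counts left 0, a threshold of 0.05 gave 10, and leaving out a library gave 0 to 4. The added DESeq2 fits gave 14 at 0.05, 9 with the replicate block and 7 to 10 (9, 7, 10 and 9) when a library was left out. *Ikbkb* turned to 0.00042 with edgeR (lowest value -0.14, without unloaded replicate 2) and 0.011 with DESeq2 without unloaded replicate 1. *Ikbkg* turned to 0.16 and 0.17 without unloaded replicate 1 and to 0.11 and 0.12 without loaded replicate 2, and was lowest at -0.21 without unloaded replicate 2. Over all genes edgeR called 16, against 363 with DESeq2, 29 with at least 10 counts in every library, 0 with the block or no filter, 50 and 58 without unloaded replicates 1 and 2, and 0 without either loaded replicate. The cause was not tested. With lengths of the longest transcript, *Nfkb2* over *Nfkb1* in unloaded cells was 2.85 in place of 6.96, and *Nfkbia* over *Rela* was 2.76 in place of 3.06.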

Other observations

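Of the 10 osteocyte and osteoblast markers, 6 were tested (median log2 fold change 0.01), and *Pdpn* alone was called higher by DESeq2 (log2 fold change 0.59, adjusted p = 2.20e-08, against 0.0334 by edgeR). *Gja1*, which encodes the gap junction protein of osteocytes, overlapped between the groups at 500.1 and 494 CPM in unloaded and 584 and 485 CPM in loaded libraries.

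Of the 9 macrophage and endothelial markers, 6 were tested and had negative log2 fold changes, with a median of -0.47. Neither edgeR nor DESeq2 called any. At an unadjusted p under 0.05 in edgeR, 2 were lower, *Cd14* and *Cd68*, where 7.46% of all tested genes were lower. The 10 interferon-stimulated markers had a median log2 fold change of -1.75 and were negative throughout. Of all tested genes, 51.5% were negative.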
